A study of Mus musculus with 4 samples.

Results

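The genes described here are the DNA methyltransferases Dnmt1, Dnmt3a, Dnmt3b and Dnmt3l, the methylation cofactor Uhrf1 and the hydroxylases Tet1, Tet2 and Tet3. They were chosen by name, and all probes whose transcript accession matched one of them were used. Of the 8 genes listed, 7 had a matched probe, with 13 probes in all among the 41153 probes measured. No probe of Tet1 was matched by accession, so Tet1 was not analysed here. Of the 13 probes, 12 passed the filter on dim signals, which left 6 genes in the test across 22440 probes, and the probe of Dnmt3l did not pass.

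The samples were 4 pools of RNA from mVenus-positive cells, which the labels call primordial germ cells (PGCs), sorted from mouse genital ridges at embryonic day 11.5. All embryos carried the Blimp1-mVenus transgene, a reporter for Blimp1 (Prdm1), a transcription factor of germ cell specification that some other cell types also express. In 2 pools the embryos were wild-type, and in the other 2 they were HP1 gamma -/- (HP1g-/-) through a modified gene trap. HP1γ is the heterochromatin protein encoded by Cbx3. Each pool joined 5 or 6 embryos of 1 genotype, with about 500 to 3500 sorted cells per embryo, and was hybridised to 1 one-colour Agilent array. Wild-type pools are called wild-type 1 and 2 here, and HP1 gamma -/- pools null 1 and 2. A level is the log2 signal relative to the 75th percentile of the same array, so 0 is the brightness that 75% of the spots do not exceed. Levels of different probes depend on the probe and are not ranked against each other.

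DNA methylation at CpG dinucleotides is copied after replication by Dnmt1, which Uhrf1 brings to newly copied DNA by recognising its hemimethylated sites. Dnmt3a and Dnmt3b place new methylation, Dnmt3l is their partner without catalytic activity, and the Tet enzymes oxidise methylated cytosine. Primordial germ cells lose most of their DNA methylation at around the stage sampled here, and Uhrf1 and the new-methylation enzymes are known to be low in them while Dnmt1 is retained.

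The promoters below, of the maintenance genes Dnmt1 and Uhrf1 and of Dnmt3l, are shown as examples. Each is a RefSeq window of 300 bases on GRCm38.p6, from 250 bases before an annotated start to 50 after it, printed 5′ to 3′ on the gene's own strand. In the windows of Dnmt1 (chr9:20952574-20952873, minus strand) and Uhrf1 (chr17:56304063-56304362, plus strand), capitals mark letters of the type bound by E2F factors, which drive genes of DNA replication. In the window of Dnmt3l (chr10:78042037-78042336, plus strand), capitals mark CpG.
Dnmt1: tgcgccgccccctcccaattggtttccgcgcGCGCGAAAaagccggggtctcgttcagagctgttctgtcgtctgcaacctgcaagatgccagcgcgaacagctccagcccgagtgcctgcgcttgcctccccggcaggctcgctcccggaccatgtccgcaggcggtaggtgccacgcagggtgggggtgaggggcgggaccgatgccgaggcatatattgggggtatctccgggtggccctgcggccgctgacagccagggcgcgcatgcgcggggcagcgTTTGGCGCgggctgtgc
Uhrf1: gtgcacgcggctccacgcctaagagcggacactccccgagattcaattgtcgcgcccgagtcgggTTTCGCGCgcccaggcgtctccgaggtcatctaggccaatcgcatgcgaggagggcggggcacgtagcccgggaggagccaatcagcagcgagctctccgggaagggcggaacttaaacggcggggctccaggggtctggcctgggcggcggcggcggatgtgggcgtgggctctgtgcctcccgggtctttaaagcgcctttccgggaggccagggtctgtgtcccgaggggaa
Dnmt3l: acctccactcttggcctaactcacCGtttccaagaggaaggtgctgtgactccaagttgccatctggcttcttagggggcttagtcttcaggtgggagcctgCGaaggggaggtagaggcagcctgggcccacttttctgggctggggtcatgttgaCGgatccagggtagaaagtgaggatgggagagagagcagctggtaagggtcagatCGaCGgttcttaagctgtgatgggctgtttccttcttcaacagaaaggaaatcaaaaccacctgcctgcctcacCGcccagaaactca

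The windows of Dnmt1 and Uhrf1 shown hold 33 CpG each, and that of Dnmt3l holds 6, and each is the richest in CpG for its gene. The other windows of Dnmt3l hold 4 and 3 CpG, while the median over all 32851 windows is 7. Dnmt1 also has annotated starts whose windows hold 12 and 2 CpG, and Uhrf1 has another with 12. Among the remaining genes, the window of Tet2 holds 57 CpG, that of Dnmt3b 30, that of Tet3 22 and that of Tet1 17, and those of Dnmt3a 46, 47 and 18. Windows with many CpG were thus not particular to the maintenance genes. The motifs searched, on both strands, were TTTCGCGC, TTTGGCGC and GGCGGGAA, found in 0.323%, 0.514% and 2.19% of all windows. The Dnmt1 window held TTTCGCGC on the other strand at bases -219 to -212 from the start and TTTGGCGC at 34 to 41. The Uhrf1 window held TTTCGCGC at -185 to -178, and its other window (chr17:56303087-56303386) held GGCGGGAA on the other strand at -48 to -41. None of these matches overlapped another, and the windows of the other 6 genes held none of the 3. A match describes the letters only. Binding and methylation of these promoters were not measured here.

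Several facts of the arrays bear on every value below. By its brightest probe the targeted gene, Cbx3, read 5.89 and 5.72 in wild type against -1.24 and -2.78 in null 1 and 2. Of 16 germ cell markers, 13 had a probe, and 12, 12, 13 and 4 of them were well above background in wild-type 1 and 2 and null 1 and 2. Their summed signal, in units of the array's 75th percentile, was 15.5 to 49.8 in wild type against 1.28 to 208 in the null pools. The brightest of them on every array, Dppa5a, weighs most in these sums, at levels of 5.37 and 3.66 in wild type and 7.45 and -0.84 in null 1 and 2. Dppa3, Pou5f1, Ddx4, Dazl, Sox2, Tfap2c, Nanos3, Dppa4 and Utf1 were the 9 not well above background in null 2, which is called here being under the detection limit. All 10 endothelial markers were well above background on every array, with summed signals of 359 and 398 in wild type against 203 and 268 in the null pools. All 7 leukocyte markers with a probe (of 8 listed) were too, with 221 and 256 against 224 and 194, and the 8 stromal markers gave 24.1 and 9.97 against 11.1 and 84.3. Of 7 markers of the gonadal soma, 3, 3, 3 and 7 were well above background in wild-type 1 and 2 and null 1 and 2, with summed signals of 2.67 and 1.45 against 3.3 and 7.56. Of 7 erythroid markers, Gata1 and Klf1 were under the detection limit on every array, and the sums were 3.65 and 5.54 against 2.97 and 3.17. The levels below are therefore those of mixed sorted pools. In such bulk RNA, fewer cells of a type cannot be told apart from less RNA per cell.

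Dnmt1 stood at nearly the same level in all 4 pools. Its single probe, A_51_P195573, read 1.21 and 1.27 in the wild-type pools and 1.21 and 1.26 in the null pools. Both genotypes had a mean of 1.24, with SDs of 0.05 and 0.03 (n = 2 each), and the groups overlapped. The range of 0.07 over the arrays was lower than that of all but 0.281% of the tested probes. It was also smaller than the scanner software's own error estimate for this spot, 0.14 log2 units on each array. The limma 95% interval of the difference ran from -0.51 to 0.51. With scaling to the spiked-in control RNA the difference was -0.55, where the median of all tested probes was -0.61.

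Uhrf1, which guides Dnmt1 to hemimethylated DNA, had slightly lower means in the null pools by both of its probes. Probe A_52_P314705 read 4.14 and 4.06 in wild type against 3.88 and 3.89 in the null pools. Probe A_51_P491742 read 2.63 and 2.69 against 2.36 and 2.44. Both null pools lay below both wild-type pools on each probe, without overlap. The log2 differences were -0.22 with SE 0.19 and -0.26 with SE 0.19, neither of which passed the threshold (limma adjusted p = 0.87 and 0.84). The fitted fold was 0.861 and 0.833, and with scaling to the spiked-in control RNA the log2 differences were -0.76 and -0.81. All 10 endothelial markers also had lower means in the null pools, 9 of them without overlap. All 7 leukocyte and all 3 erythroid markers tested had lower means too, 2 and 1 of them without overlap. All 8 stromal and all 3 gonadal soma markers tested had higher means. Among all tested probes, 13085 of 22440 had a lower mean, and 23% were lower without overlap. The part of any marker list in the Uhrf1 differences was not tested.

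Dnmt3a, a de novo methyltransferase, had higher means in the null pools by each of its 3 probes, but with scaling to the spiked-in control RNA the differences were -0.15, -0.04 and 0.01, where the median of all tested probes was -0.61. Probe A_52_P76146 read 2.36 and 2.26 in wild type against 2.51 and 2.90 in the null pools. Probe A_52_P169048 read -0.94 and -0.90 against -0.77 and -0.06, and probe A_52_P30497 read -1.70 and -1.50 against -0.92 and -1.17. On each probe the null pools lay above the wild-type pools, but null 2 was the highest by the first pair of probes and null 1 by the last. The files assign the first probe to one Dnmt3a transcript and the other pair to another, and their positions on the transcripts were not known here. The log2 differences were 0.39 with SE 0.23, 0.51 with SE 0.30 and 0.55 with SE 0.22 in that order, and none passed the threshold (limma adjusted p = 0.79, 0.80 and 0.68). Without null 2 they were 0.20, 0.15 and 0.68, while 7 of the 8 stromal markers and all 3 gonadal soma markers tested were highest in null 2. Of the gonadal soma markers, Amhr2 read -0.50 and -1.46 in wild type, and null 1 and 2 read 0.82 and 1.51 (limma adjusted p = 0.45). Wnt4 was under the detection limit in both wild-type pools and at least 3.02-fold higher in the null pools, set against the arrays' lowest signals well above background (limma adjusted p = 0.45). Wt1, the other gonadal soma marker tested, read 0.62 and -0.44 in wild type against 0.23 and 1.96, and its groups overlapped. Gata4, Nr5a1, Lhx9 and Emx2 did not pass the filter on dim signals, and their groups overlapped too. The part of either marker list in the Dnmt3a values was not tested.

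Dnmt3b, the other de novo methyltransferase, read 0.16 and 0.15 in wild type against -0.33 and 0.01 in the null pools by its single probe. The null pools lay below the wild-type pools, and the gap to null 2 was small beside that to null 1. The log2 difference was -0.31 with SE 0.22 and did not pass (limma adjusted p = 0.84), with an interval from -0.90 to 0.28. It was -0.14 without null 1, -0.48 without null 2, -0.18 with another background correction (normexp) and -0.86 with scaling to the spiked-in control RNA. Dnmt3a and Dnmt3b thus had means on opposite sides of 0 under the scaling used here, and the difference between the 2 genes was not tested.

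Dnmt3l, the partner without catalytic activity, stayed under the detection limit in all 4 pools. Its probe gave signals of 3.47 and 4.84 intensity units in wild type against 4.72 and 5.79 in the null pools. The lowest signals called well above background on the same arrays were 14.6, 12.7, 10.6 and 10.1 intensity units. Every pool was under that limit, so no fold is given.

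**Figure D1:**
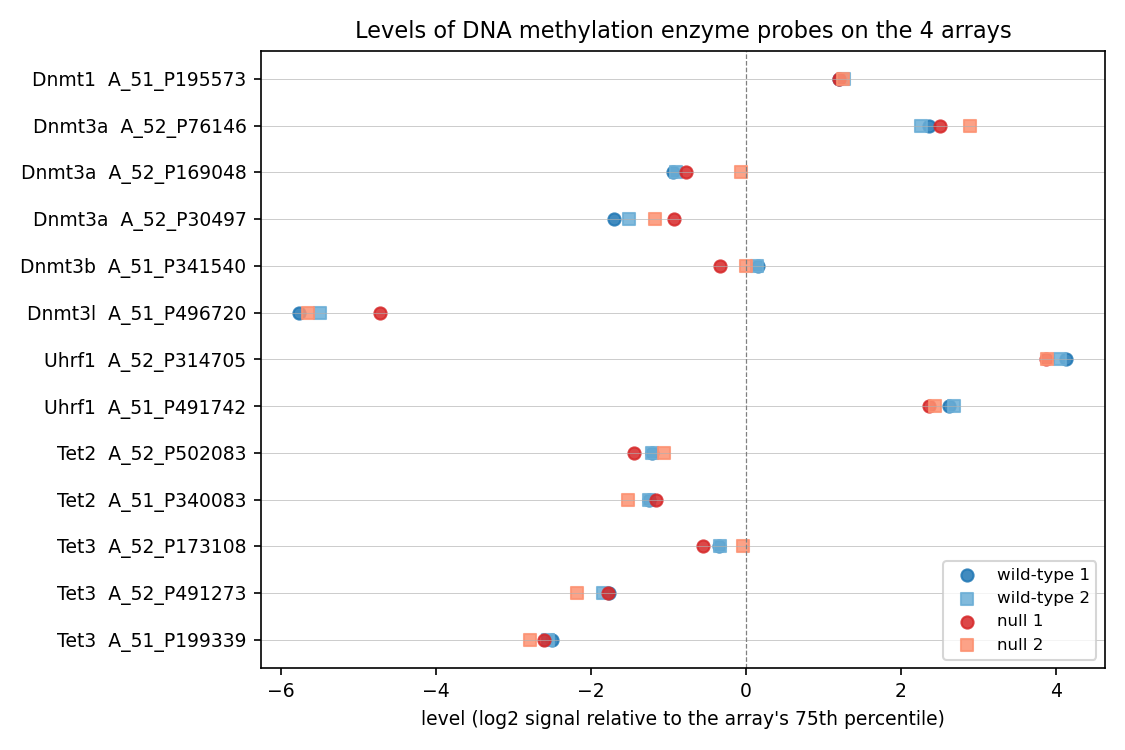
Levels of the 13 probes on the 4 arrays, as log2 signal relative to the array's 75th percentile (horizontal axis), 1 row per probe and 1 point per pool. The 4 points of Dnmt1 lie within 0.07 of each other, the Dnmt3l probe lies under the detection limit of every array, and the widest spread among tested probes is 0.88, for Dnmt3a probe A_52_P169048.

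Tet2 and Tet3, which oxidise methylated cytosine, did not separate by genotype in the same way on all their probes. Tet2 read -1.21 on both wild-type arrays and -1.44 and -1.06 on the null arrays by probe A_52_P502083. By probe A_51_P340083 it read -1.25 on both wild-type arrays and -1.16 and -1.52 on the null arrays. The wild-type pools thus lay between the null pools on both probes, and the order of the null pools turned from one probe to the other. The log2 differences of -0.04 and -0.09 were smaller than their SE of 0.23 and 0.22 (limma adjusted p = 0.99 and 0.97).

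Tet3 read -0.35 and -0.33 in wild type against -0.55 and -0.04 in the null pools by probe A_52_P173108. Probe A_52_P491273 read -1.76 and -1.84 against -1.78 and -2.18, and probe A_51_P199339 read -2.50 and -2.55 against -2.60 and -2.78. Null 2 was the highest array by the first of these probes and the lowest by the other 2, so the probes of Tet3 disagreed on that pool. The log2 differences were 0.04, -0.18 and -0.16, with SE 0.26, 0.23 and 0.20 (limma adjusted p = 0.99, 0.92 and 0.92). Of these probes only A_51_P199339 had null pools that did not overlap wild type. With scaling to the spiked-in control RNA the Tet2 differences were -0.59 and -0.64 and those of Tet3 -0.50, -0.73 and -0.71.

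None of the 12 probes of the 6 tested genes passed the threshold, an adjusted p under 0.05 in limma, and over all tested probes 0.00891% passed. At an unadjusted p under 0.05 there were 0 of the 12, against 7.51% of all tested probes. No probe of these genes differed 2-fold between the means, against 5.88% of all. The null pools did not overlap the wild-type pools on 7 of the 12 probes, 3 higher and 4 lower, where 38.2% of all tested probes did not overlap, 15.1% higher and 23% lower. Several of these probes share a gene, and by 1 probe a gene it was 3 of 6. The median difference was -0.07 over the 12 probes and -0.06 over all tested probes. The 95% intervals of the 12 differences reached from -0.90 to 1.32, and those of the 3 Dnmt3a probes reached past 2-fold. The p-values, SEs and intervals rest on the spread between 2 pools per genotype, which limma moderated toward the spread of all tested probes. That prior carried 2.43 degrees of freedom, against 2 from the pools, so they do not measure the pools alone. Of the probes of the targeted gene, Cbx3, the brightest differed by -7.82 and did not pass, and the other differed by -6.70 and passed (limma adjusted p = 0.099 and 0.044).

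**Figure D2:**
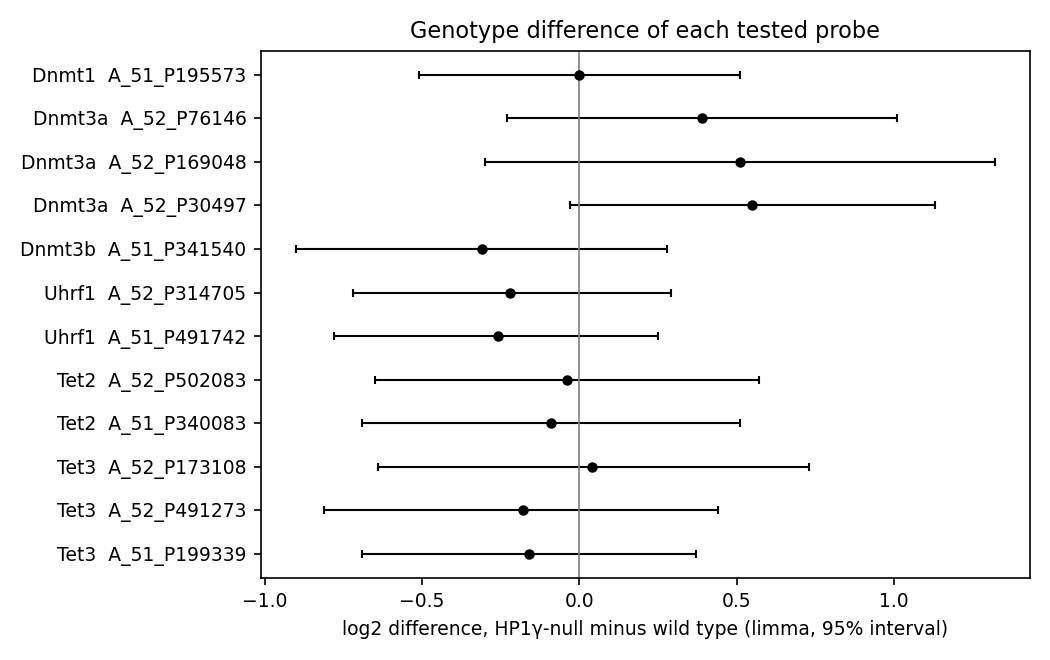
Log2 difference of the HP1 gamma -/- pools from wild type (horizontal axis) for each of the 12 tested probes, with points for the limma estimate and bars for its 95% interval. Every bar crosses 0, and the highest bound, 1.32, belongs to Dnmt3a probe A_52_P169048.

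With levels set to the 75th percentile, the tested genes ranged over the pools by less than 1 log2 unit each, while each germ cell marker tested ranged by more than 2. Of the 12 probes, 8 had a range under 0.5 log2 units over the 4 arrays, against 36.5% of all tested probes, and the median range was 0.40 against 0.63. Several of these probes share a gene, and by 1 probe a gene it was 4 of 6, with a median range of 0.44. With normexp 6 of the 12 probes were under 0.5, against 52.2% of all. The median range was then 0.49 against 0.48, so under that background correction the members ranged as much as all probes. Normexp was run with an added offset of 50 intensity units, which narrows the ranges of dim probes most. The arrays' 75th percentile signals were 124.6 in null 1 to 290.6 in null 2. Without null 2, and without normexp, 11 of 12 were under 0.5, against 60.5% of all. With scaling to spiked-in RNA it was 0 of 12, against 2.87% of all, and the median range of the 12 was 1.08 against 1.15 for all probes, so the small ranges are relative to the array's overall brightness. The 2 wild-type pools differed by a median of 0.05 on these 12 probes and by at most 0.20, where all tested probes differed by a median of 0.16. The null pools differed by a median of 0.35 on the 12 probes and by at most 0.71, where all probes had 0.42.

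Of the 12 germ cell markers tested, 8 were under the detection limit in null 2, so their ranges are lower bounds, taken with null 2 at that limit, a level of -4.84. So bounded, the 12 ranged by 2.06 to at least 8.42, with a median of at least 5.55, and none was under 1 log2 unit, where 75.9% of all tested probes were. Dppa3 (Stella), a germ cell protein known to shield DNA methylation in the zygote, read 1.60 and -0.26 in wild type and 3.58 in null 1, and was under the detection limit in null 2. Dppa5a, another germ cell marker, read 5.37 and 3.66 in wild type against 7.45 and -0.84 in the null pools. Tfap2c, a transcription factor of germ cell specification, read -0.69, -2.02 and 2.21, and was under the detection limit in null 2. With levels set to the 75th percentile, Dnmt1, Dnmt3b, Uhrf1, Tet2 and Tet3 kept within 0.52 log2 units over pools between which these markers ranged over many doublings. The Dnmt3a probes ranged by 0.64 to 0.88. With scaling to spiked-in RNA the probes of the genes other than Dnmt3a ranged by 0.87 to 1.44. Which cells these transcripts came from was not tested. Without null 2 the markers still ranged by a median of 3.81, and without null 1 there was 1 marker under 1. The 12 genes of S phase and proliferation ranged by 0.13 to 0.73, all of them under 1. Mki67, a marker of cycling cells, read 5.16 and 5.24 in wild type against 5.12 and 5.20 in the null pools, and the replication helicase gene Mcm5 read 3.96, 4.03, 4.10 and 3.91. All 7 leukocyte markers tested ranged by under 1 too, from 0.21 to 0.86 with a median of 0.43. The 10 endothelial markers ranged by 0.75 to 2.19, with a median of 1.02, and 4 of them were under 1. The 8 stromal markers ranged by 2.18 to 4.72. Small ranges were thus not particular to the methylation enzymes or to genes of S phase. Of the 10 S phase and proliferation genes with a promoter window, 4 held one of the E2F-type motifs above, and of the 8 methylation genes 2 did. Among all genes with a window the share was 3.39%. The S phase list was made of genes of the kind that E2F factors are known to drive, so its share is no independent result. Any part of E2F factors in the ranges was not tested.

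**Figure D3:**
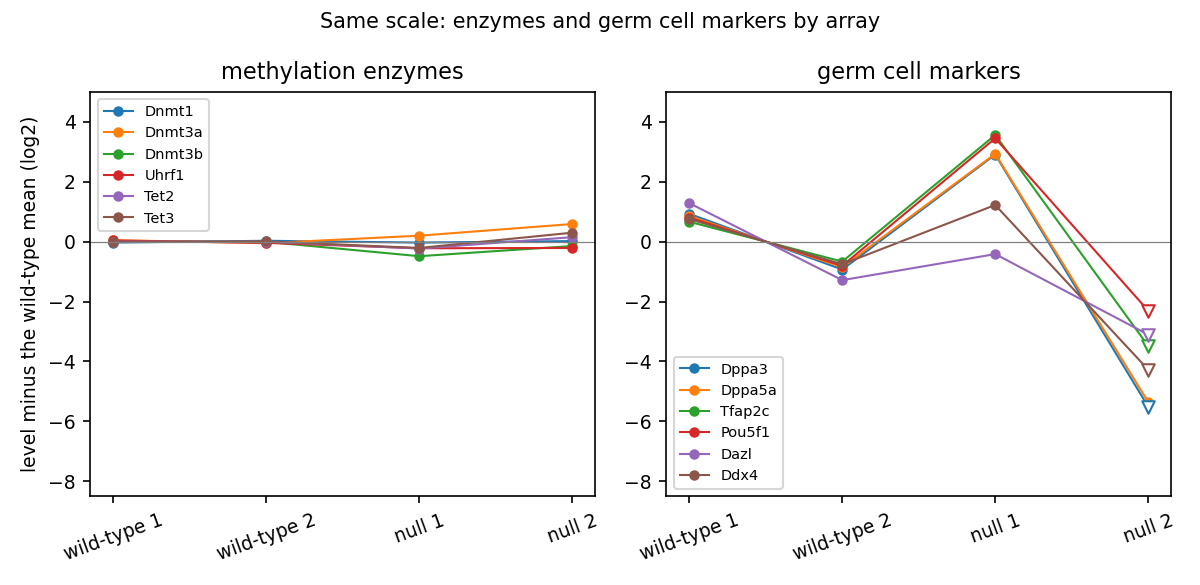
Level of each gene minus its mean in the wild-type pools (vertical axis, log2), by array, for 6 methylation enzyme genes and 6 germ cell markers on the same scale. Lines join the points of 1 gene and imply no order of the pools. The enzymes stay near 0 on all arrays, while 5 of the 6 markers are highest in null 1 and all 6 are lowest in null 2. There all but Dppa5a were under the detection limit and are drawn at it as open triangles, so their points are upper bounds.

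**Figure D4:**
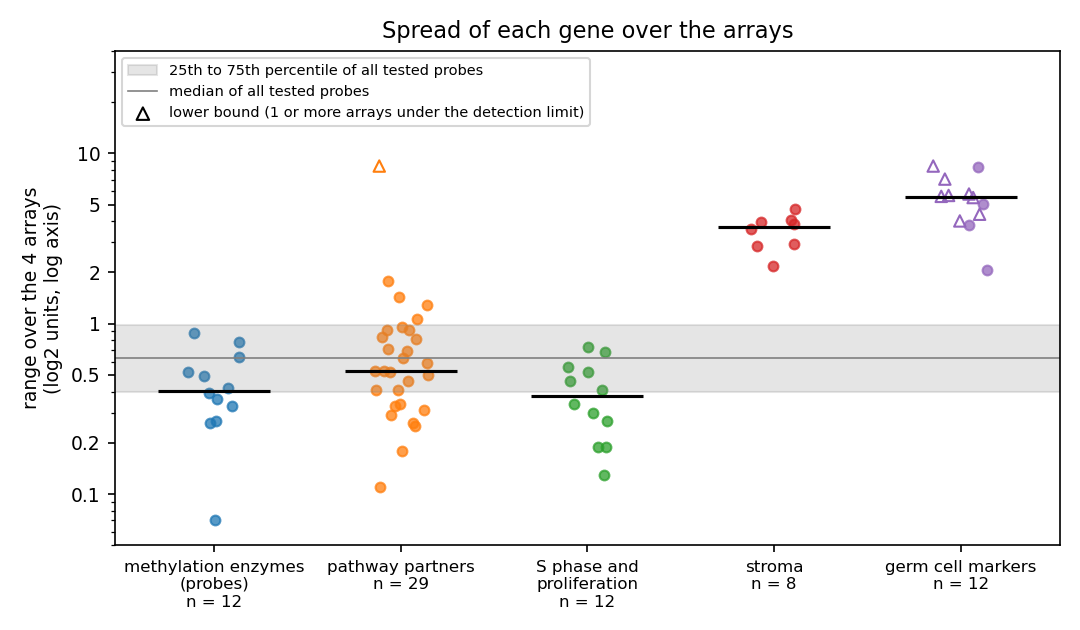
Range of each tested probe over the 4 arrays (vertical axis, log2 units on a log axis), with 1 point per probe or gene and a black bar at each median. The grey band spans the 25th to 75th percentile of all tested probes, 0.40 to 0.98. The 12 methylation enzyme probes have a median of 0.40 (0.44 by 1 probe a gene). S phase genes have 0.37 and germ cell markers at least 5.55, by 1 probe a gene. Open triangles are lower bounds, for genes under the detection limit on 1 or more arrays.

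The wider pathway was followed in a list of 32 genes that guide, read or remove DNA methylation or supply its substrates. Of these 31 had a probe and 29 were tested, and 24 of the 29 ranged by less than 1 log2 unit, against 75.9% of all tested probes. Limma called 0 of the 29 over all probes, with 0 at an unadjusted p under 0.05, against 7.51% of all. In the null pools 6 were higher and 7 lower than in both wild-type pools, where 15.1% and 23% of all tested probes were, and the median difference was -0.05, against -0.06 over all tested probes. Hells, the chromatin remodeller that aids maintenance methylation, read 1.14, 1.08, 1.29 and 0.22 in wild-type 1 and 2 and null 1 and 2, so null 2 stood apart. Uhrf2, the paralog of Uhrf1, read 3.05 and 3.14 in wild type against 3.00 and 2.85 in the null pools. Tdg, the glycosylase that removes oxidised cytosine bases, read 2.96 and 2.98 against 2.86 and 2.72. Mat2a, which makes the methyl donor, read 5.36 and 5.33 against 5.39 and 5.51. The 5 genes of the list that ranged by 1 or more were Dppa3, by at least 8.42, Ung, by 1.77, Ahcy, by 1.43, Gadd45a, by 1.28, and Hells, by 1.07. Ung, a uracil glycosylase, read 1.93, 1.62, 3.07 and 1.31, and Ahcy, which clears the by-product of methylation, read -2.00, -2.01, -1.18 and -2.61. Both were highest in null 1 and lowest in null 2.

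Among the 6 pathway genes with the smallest p, Apobec1, a cytidine deaminase, had means of 3.30 ± 0.25 in wild type against 2.74 ± 0.14 in the null pools (n = 2 each, limma adjusted p = 0.70). Trim28, the corepressor that protects methylation at imprinted regions, had 3.20 ± 0.11 and 3.70 ± 0.33 (limma adjusted p = 0.75), and a log2 difference of -0.05 with scaling to spiked-in RNA. Usp7, which stabilises Dnmt1 and Uhrf1, had 4.21 ± 0.01 and 3.82 ± 0.19 (limma adjusted p = 0.78). Mbd2, a reader of methylated DNA, had 0.84 ± 0.13 and 0.49 ± 0.12 (limma adjusted p = 0.79). Zbtb4, another reader, differed by -0.29 and Gadd45b, a stress gene linked to demethylation, by 0.41, or by -0.14 with scaling to spiked-in RNA (limma adjusted p = 0.84 and 0.86). None passed the threshold. With scaling to spiked-in RNA the differences of Apobec1, Usp7, Mbd2 and Zbtb4 were -1.10, -0.93, -0.90 and -0.84, against -0.56, -0.38, -0.35 and -0.29. Gadd45b was 0.02 without null 1 and 0.80 without null 2.

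Germline genes whose promoters are methylated in somatic cells are known targets of these enzymes. Of 17 listed, 15 had a probe, 7 were tested, and 10, 7, 9 and 6 were well above background in wild-type 1 and 2 and null 1 and 2. Limma called 0 of the 7. Tdrd1 was the 1 at an unadjusted p under 0.05, where 7.51% of all tested probes were, and the 1 that did not overlap between genotypes, where 38.2% did not. Tdrd1, of the piRNA pathway, read -3.26 and -3.71 in wild type against -1.78 and -2.79 in the null pools, a log2 difference of 1.20 with SE 0.42 (limma adjusted p = 0.64). That difference was 0.39 with normexp, 0.65 with scaling to spiked-in RNA, 0.69 without null 1 and 1.70 without null 2. Dazl, an RNA-binding protein of germ cells, read -0.45 and -3.02 in wild type and -2.15 in null 1, and was under the detection limit in null 2. Mael, also of the piRNA pathway, read -1.31, -3.16 and -2.41 on the same arrays, and Ddx4, the germ cell helicase, 0.19, -1.32 and 0.66, and both were under that limit in null 2. Tex101, a germ cell surface gene, read -0.45 and -0.71 in wild type against 0.01 and -2.07 in the null pools, and Hormad1, a meiotic chromosome gene, -1.27 and -2.31 against -1.62 and -1.49. Of the 7 tested, 5 were lowest in null 2, where all 12 germ cell markers were lowest, and Hormad1 and Tdrd1 were not. Only 4 of the 7 were highest in null 1, against 11 of the 12 germ cell markers. Dazl, Mael and Hormad1 were highest in wild-type 1. Dazl, Ddx4, Mael, Tex101 and Hormad1 had adjusted p between 0.82 and 0.95 in limma. Ddx4 and Dazl are also among the germ cell markers, so the lists are not independent. In the promoter windows of 16 of the listed genes there were 3 to 38 CpG, with a median of 22 over 21 windows.

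Over the 4 arrays, the 2 genes with the widest range by the probe used were Dnmt3a and Tet3, and other genes followed their patterns closely. Among 11577 other named genes, the mean absolute difference of centred levels from Dnmt3a was smallest for Snap47, at 0.015 log2 units, then Sinhcaf at 0.018, Ift22 at 0.018, Ccp110 at 0.020 and Kat6b at 0.022. Snap47 read 1.51, 1.37, 1.63 and 1.99. For Tet3 it was smallest for Ago1, at 0.009, then Dnm2 at 0.012, Igflr1 at 0.012, Msantd1 at 0.013 and Mapk12 at 0.014. Ago1 read 1.51, 1.55, 1.33 and 1.83. With 4 arrays and so many genes, close matches in pattern are numerous, and these are a description only.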

How the data were processed

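Gene expression was measured in 4 RNA pools on 1-colour Agilent arrays. Per the labels, the Cy3-labelled material of each pool was amplified from 4 ng of RNA. Per the file headers, the deposited intensity values come from Agilent Feature Extraction 10.7.3.1, with background subtracted within each array and no scaling across arrays. A deposited value table repeats the intensity values rounded, within 0.497%.

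Computed here were log2 processed signals minus the array's 75th percentile over 43379 spots that are not controls, averaged over spots of a probe. Spots marked as outliers were left out, which removed 21 of 41174 probes. A probe was tested if it was well above background in both pools of either genotype. The genotype test was limma 3.58.1 (R 4.3.3), two-sided, with Benjamini-Hochberg adjustment over 22440 probes and no covariate. It was also run on simulated independent values with the same SD on all arrays for a probe. The real pools differed from that setting. Differences between the null pools had an SD of 0.84 over tested probes, against 0.40 between the wild-type pools. The simulation therefore cannot show how the test behaves with such unequal spread. The share of spots well above background was 53.3% to 63.3% per array, and the number of arrays limits the precision.

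Probes were named through RefSeq accessions of GRCm38.p6. For a gene with several probes, the brightest over all arrays was used for counts by gene. The members and lists were chosen with earlier results of these data known. Named are all members, from each list up to 6 genes by unadjusted p, and for the 2 members of widest range the 5 genes of nearest pattern. Other genes given with values (Dppa3, Dppa5a, Tfap2c, Mki67, Mcm5, Hells, Uhrf2, Tdg, Mat2a, Ung, Ahcy, Gadd45a, Amhr2, Wnt4) were chosen after their values were seen. Alternatives were 4 other scalings or background corrections, the authors' values, other filters, a variance trend, the replicate number as a block, and each array left out. Normexp values thus include both another background estimate and an added offset of 50 intensity units.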

Additional observations from a re-analysis of the deposited data

How the results depend on the processing

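No tested gene of the 6 passed the threshold under any alternative run, and the lowest adjusted p among their 84 alternative values was 0.16 (limma). Of these values 77 kept their direction and 7 turned, where all values of Dnmt1, whose difference rounds to 0, count as kept. The turned values were, with scaling to spiked-in RNA, -0.15 for Dnmt3a and -0.50 for Tet3, with normexp 0.08 for Tet2, and by its other probes -0.18 and -0.16 for Tet3. Without null 1 Tet2 was 0.15, and without null 2 Tet3 was -0.21. Over single arrays left out, Tet2 ran from -0.23 to 0.15 and Tet3 from -0.21 to 0.30. Among other named genes, scaling to spiked-in RNA gave -0.05 for Trim28, -0.14 for Gadd45b and -0.31 for Hormad1. With single arrays left out, Ddx4 ran from -6.16, which rests on null 2 alone and is at most -4.28 with null 2 at its detection limit, to 1.22. Tex101 ran from -1.49 to 0.59 and Hormad1 from -0.29 to 0.75.

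Over all probes, 2 passed. The count was 137 with scaling to spiked-in RNA, 7 with a variance trend, 13 with the replicate block, 1 with probes well above background on all 4 arrays, 0 without a filter (1474 at an unadjusted p under 0.05, limma) and 0 with any 1 array left out (607 to 5644 at an unadjusted p under 0.05). Quantile normalization gave 3 and normexp 2. Same-numbered pools deviated from their group means with a correlation of 0.066 over probes, and the labels name no shared source, so the numbers were not taken to pair the samples. The count of member probes with a range under 0.5 was 0 with scaling to spiked-in RNA, 6 with normexp (52.2% of all probes) and 8 to 11 with 1 array left out. The files hold no mean spot signal, so the planned normexp on it was not run, and the median signal was used instead, chosen after seeing the data, as were the alternatives for the ranges. Dim probes such as that of Dnmt3l are limited by background.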
